A study of Mus musculus with 4 samples.

Results

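The nuclear pore and nuclear transport genes were followed in the RNA of CD69+DP thymocytes, the CD4+CD8+ cells that have received a TCR signal and are entering positive selection. The members were taken by name: nucleoporins (*Nup* and *Nupl* followed by a number, with *Ranbp2*, *Tpr*, *Pom121*, *Seh1l*, *Sec13*, *Aaas*, *Rae1*, *Ndc1* and *Ahctf1*), importins (*Kpna*, *Kpnb1* and *Ipo*) and exportins (*Xpo* followed by a number). They were 52 of the 24421 genes listed, 33 nucleoporins and 19 transport receptors, and 48 of the 52 had an FPKM of at least 1 in 2 samples, as had 10776 genes in all. FPKM (fragments per kilobase, divided by a scale value for each sample) corrects for gene length. Levels of different genes can therefore be set beside each other.

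The nuclear pore complex is the channel through which proteins and RNA pass between nucleus and cytoplasm. It is built from nucleoporins in a scaffold of an outer Y complex and an inner ring, anchored in the envelope by transmembrane nucleoporins, lined by FG-repeat nucleoporins and carrying filaments on its cytoplasmic face and a basket on its nuclear face. Importins and exportins carry cargo through the channel, and the GTPase Ran, loaded with GTP in the nucleus, tells them where to bind and release it. In T cells, NFAT and NF-kappaB enter the nucleus by this route after TCR signalling.

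The study compared control with Foxa1/2cKO CD69+DP thymocytes from the adult thymus of 6 week old mice on a C57BL/6 background, with 2 samples per group. Both groups carried floxed alleles of *Foxa1* and *Foxa2* (Foxa1fl/flFoxa2fl/fl); Foxa1/2cKO were CD4Cre+ and controls CD4Cre-. The *Cd4* promoter drives the Cre, so that deletion begins at the DP stage. The samples hold cells of different animals, with 2 animals per genotype used in a sort, and p-values measure the spread between samples.

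*Foxa1* and *Foxa2* were listed at 0 in all 4 samples, so their RNA did not check the genotypes. Between 10382399 and 14462250 reads per sample were recovered. The 8 markers of DP thymocytes summed to 3148 FPKM in Foxa1/2cKO 2 and to between 2443 and 2522 in the other 3 samples, and *Cd4*, *Cd8a*, *Cd8b1* and *Cd69* were all present. Summed markers of other cells were low: 30.2 to 77.1 FPKM for 4 B cell genes, 9.39 to 19.7 for 5 myeloid genes, 0.608 to 2.67 for 5 erythroid genes (with *Hba-a1*, *Hbb-bs* and *Hbb-bt* at 0 in every sample) and 3.18 to 4.18 for 5 thymic epithelial genes. Foxa1/2cKO 2 stood apart from the other samples. On the first principal component, which held 65.2% of the variance of all tested genes, it lay at 28.5 and the other 3 samples between -11.0 and -7.42. Its 12 cycling genes summed to 199.5 FPKM, against 534.9 and 569.4 in control and 618.2 in Foxa1/2cKO 1. Its 4 markers of mature SP thymocytes summed to 160.5 FPKM, against 194.2 to 219.7 in the other 3 samples. Of these, *Ccr7* (39.1 against 82.5 to 91.7), *Klf2* (17.0 against 37.0 to 43.4) and *S1pr1* (6.4 against 12.3 to 13.9) were low in it, 3 of the 4. The part of these differences in the values of the members was not tested. In bulk RNA, fewer cells of a type and less RNA per cell cannot be told apart.

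The promoters of 5 genes are shown because their genes stand for the patterns described further on. *Ranbp2*, *Tpr* and *Nup153* were higher in both Foxa1/2cKO samples than in both controls. *Kpna2* and *Xpo1* differed most between the 2 Foxa1/2cKO samples among importins alpha and exportins. Each runs from 250 bases before to 50 bases after the RefSeq start (GRCm38.p6), on the strand of the gene. They lie at chr10:58446602-58446901 (*Ranbp2*, plus strand), chr1:150392588-150392887 (*Tpr*, plus), chr13:46727800-46728099 (*Nup153*, minus), chr11:106999476-106999775 (*Kpna2*, minus) and chr11:23255791-23256090 (*Xpo1*, plus). Capitals mark TGATGACGC in the first 3, CCAAT in the last 2, and TTTGAA (read TTCAAA on the opposite strand) in *Kpna2*.
Ranbp2: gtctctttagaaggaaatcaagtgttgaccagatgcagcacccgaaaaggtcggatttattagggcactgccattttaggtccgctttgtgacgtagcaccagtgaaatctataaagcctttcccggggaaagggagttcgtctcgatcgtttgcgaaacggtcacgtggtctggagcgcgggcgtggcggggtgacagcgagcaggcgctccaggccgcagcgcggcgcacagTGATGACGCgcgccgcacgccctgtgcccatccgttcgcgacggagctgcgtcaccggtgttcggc
Tpr: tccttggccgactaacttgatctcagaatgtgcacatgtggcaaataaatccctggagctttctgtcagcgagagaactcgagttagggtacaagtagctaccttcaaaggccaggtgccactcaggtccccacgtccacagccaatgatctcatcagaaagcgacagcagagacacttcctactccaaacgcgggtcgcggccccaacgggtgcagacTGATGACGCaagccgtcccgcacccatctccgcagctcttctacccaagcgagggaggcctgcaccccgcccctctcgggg
Nup153: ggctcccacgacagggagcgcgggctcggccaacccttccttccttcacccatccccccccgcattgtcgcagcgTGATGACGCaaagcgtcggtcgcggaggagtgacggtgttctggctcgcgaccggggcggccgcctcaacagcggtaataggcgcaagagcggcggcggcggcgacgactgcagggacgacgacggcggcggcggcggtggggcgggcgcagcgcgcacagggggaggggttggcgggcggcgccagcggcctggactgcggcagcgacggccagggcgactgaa
Kpna2: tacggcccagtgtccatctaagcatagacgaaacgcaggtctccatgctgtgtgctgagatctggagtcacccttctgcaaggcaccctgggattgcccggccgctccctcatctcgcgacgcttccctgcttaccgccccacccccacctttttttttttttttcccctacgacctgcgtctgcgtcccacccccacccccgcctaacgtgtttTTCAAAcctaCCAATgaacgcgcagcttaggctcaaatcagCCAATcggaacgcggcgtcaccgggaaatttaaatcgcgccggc
Xpo1: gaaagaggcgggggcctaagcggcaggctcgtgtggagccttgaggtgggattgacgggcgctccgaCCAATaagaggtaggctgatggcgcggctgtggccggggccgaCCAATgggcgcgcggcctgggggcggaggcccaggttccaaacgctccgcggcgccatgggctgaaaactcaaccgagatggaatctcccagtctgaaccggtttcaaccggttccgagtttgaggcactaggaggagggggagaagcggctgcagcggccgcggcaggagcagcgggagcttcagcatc

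The string TGATGACGC was picked after these promoters had been read. It begins 16 bases before the start of *Ranbp2*, 31 before that of *Tpr* and 175 before that of *Nup153*. On either strand it was present in 80 of 27025 promoters (0.296%) and in 3 of the 41 members with a promoter (7.32%), which are the 3 genes shown. Across the genes tested, those with the string did not stand out as higher: 9 of 50 (18%) had both Foxa1/2cKO samples above both controls, against 18.9% of the 8130 genes without it. Both were below both controls for 26% of genes with the string and 17.4% of those without. The median log2 fold changes were -0.01 with it and 0.01 without. CCAAT, the box bound by NF-Y, was present in 20 of 41 members (48.8%) and in 41.1% of all promoters. TTTGAA, the core of an element known from cell cycle promoters, was present in 10 of 41 (24.4%) and in 20.2% of all promoters. *Kpna2* holds CCAAT at 25 bases before and 7 bases after its start with TTTGAA at 35 before, and *Xpo1* holds CCAAT at 183 and 140 bases before. The *Tpr* promoter also holds both strings. TGTTTAC, a Forkhead core sequence, was present in 0 of 41 members and in 4.05% of all promoters, searched on both strands. None of these strings overlaps another in the 5 sequences.

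Nuclear transport genes were well expressed in CD69+DP thymocytes. The mean FPKM of the 48 tested members ran from 3.39 (*Nup35*) to 83.4 (*Sec13*), with a median of 24.3, against 14.8 over all tested genes. *Sec13*, a scaffold protein shared with COPII vesicle coats, *Kpnb1*, the importin beta that carries classical import, *Nup210*, a transmembrane nucleoporin, *Xpo6*, the exportin of actin, and *Tpr*, the main filament of the basket, had the highest means. Each tested member had between 96 and 8495 reads in a sample. The 4 members below the filter were *Nup210l*, at 0.823 and 0.713 FPKM in control and 0.815 and 0.555 in Foxa1/2cKO, the read-through *Nup62-il4i1*, at 0.201 to 0.353 FPKM, *Nup62cl*, with 1 read in control 1, and *Kpna7*, an importin alpha of oocytes, listed at 0 throughout. The tested member nearest to the filter, *Nup35*, had 3.49 and 3.28 FPKM in control and 3.77 and 3.01 in Foxa1/2cKO.

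No member passed the test. On log2(FPKM + 1), 0 of 48 members had a limma adjusted p under 0.05 (1 of 10776 genes, 0.00928%), and limma-voom on recovered reads also gave 0. At an unadjusted p under 0.05 there were 3 members (4.55% of all genes), 3 higher in Foxa1/2cKO (2.39%) and 0 lower (2.15%). By the fitted value 27 members were higher (51.3% of all genes) and 21 lower. The median log2 fold change was 0.02, against 0.01 over all genes, and every member lay within 0.5 of 0. Standard errors ran from 0.08 to 0.32, so the size of a change that could have passed differed between members.

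For 14 members both Foxa1/2cKO samples exceeded both controls (29.2%; 18.9% of all genes) and for 4 both were below them (8.33%; 17.8% of all genes). The 14 were *Ranbp2*, *Rae1*, *Ahctf1*, *Nup160*, *Seh1l*, *Nupl1*, *Nup54*, *Nup153*, *Tpr*, *Nup50*, *Kpna1*, *Kpna4*, *Xpo4* and *Xpo5*. The 4 were *Nup85*, *Nup62*, *Ipo8* and *Ipo9*. With 2 samples in each group the smallest two-sided p of an exact permutation test is 0.333, so these are counts and not calls.

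**Figure D1:**
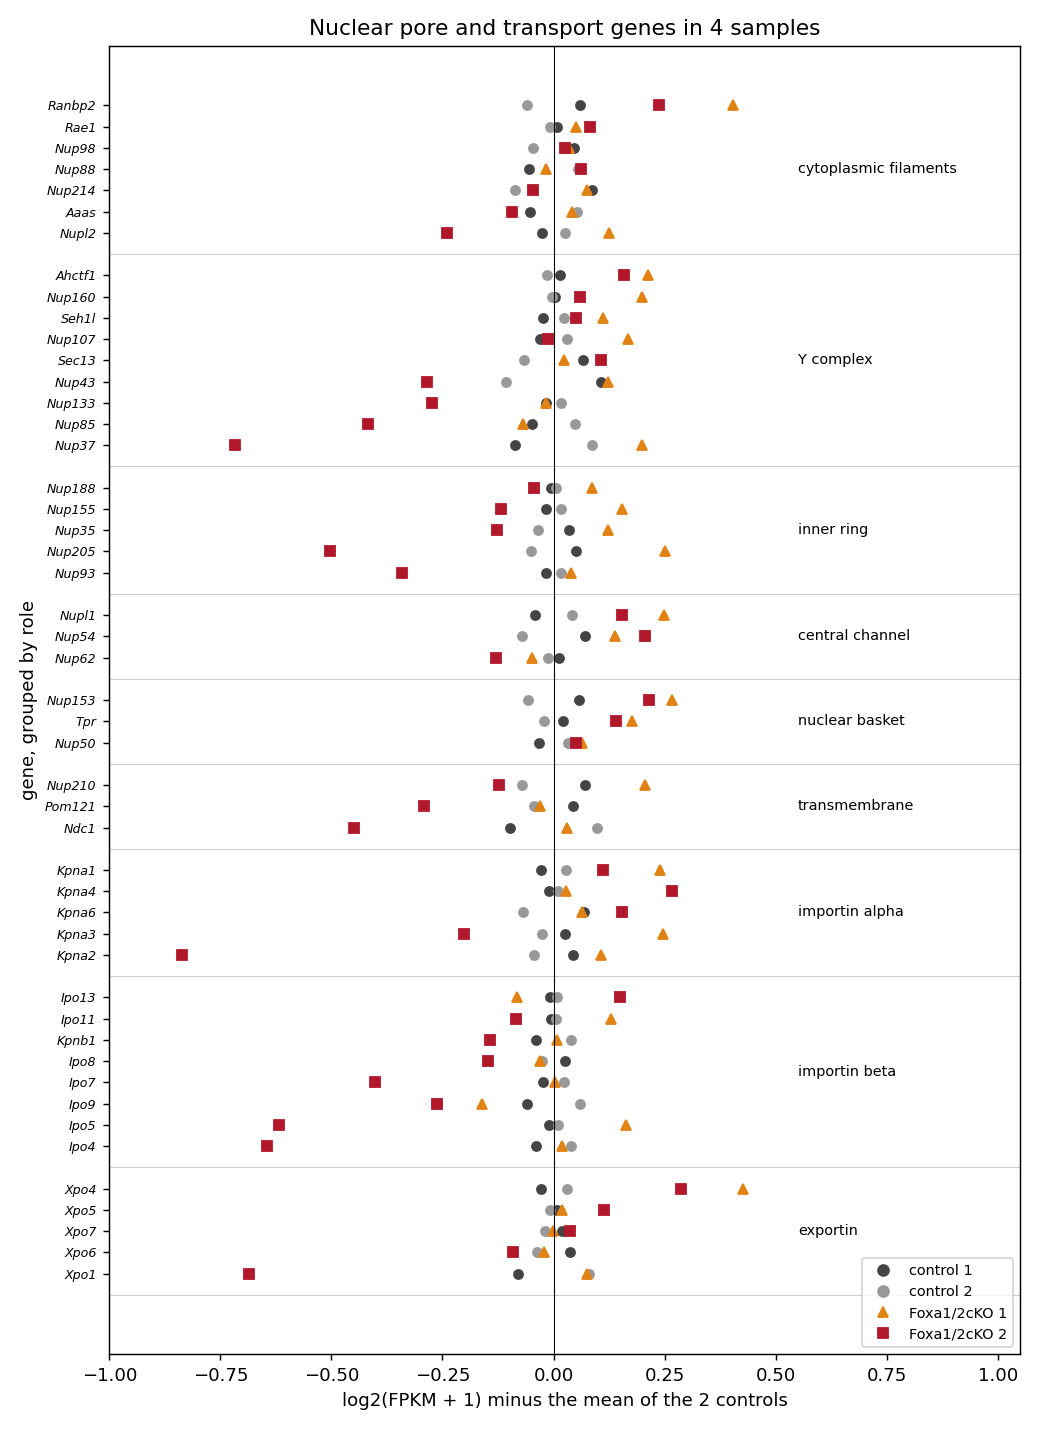
Each of the 48 tested members in the 4 samples, as log2(FPKM + 1) minus the mean of the 2 controls (horizontal axis), grouped by role (vertical axis); circles are controls, triangles Foxa1/2cKO 1 and squares Foxa1/2cKO 2. The 3 basket genes have both Foxa1/2cKO samples to the right of both controls, and Foxa1/2cKO 2 is the lowest sample for 26 of the 48 members.

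The largest consistent difference on the cytoplasmic face was that of *Ranbp2*, the giant nucleoporin of the cytoplasmic filaments that also acts as a SUMO E3 ligase and holds RanGAP at the pore. *Ranbp2* had 31.2 and 28.7 FPKM in control and 39.9 and 35.5 in Foxa1/2cKO. Both Foxa1/2cKO samples were above both controls, and the means were 29.98 ± 1.79 and 37.7 ± 3.15 FPKM (SD, n = 2 each). The log2 fold change was 0.32 (standard error 0.10, unadjusted p = 0.0297, adjusted p = 0.863, limma with Benjamini-Hochberg). It was 0.40 without Foxa1/2cKO 2 and 0.24 without Foxa1/2cKO 1. The gene lies on chromosome 10 (58446920 to 58494356, plus strand, GENCODE M21 on GRCm38), and its values rest on 3694 to 4432 reads per sample.

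The other filament genes differed less from control. *Nup214*, which with *Nup88* forms the docking site for mRNA export factors, had 23.6 and 20.9 FPKM in control and 23.4 and 21.5 in Foxa1/2cKO. *Nup98*, an FG nucleoporin found on both faces, had 17.8 and 16.6 in control and 17.7 and 17.6 in Foxa1/2cKO. For both genes the groups overlapped, with log2 fold changes of 0.01 (SE 0.11) and 0.03 (SE 0.09). *Rae1*, the mRNA export factor that binds Nup98, had 52.1 and 51.5 FPKM in control and 53.8 and 54.9 in Foxa1/2cKO. Its groups were also apart, by a small margin, with a log2 fold change of 0.07 (SE 0.08). *Nup88*, *Aaas* and *Nupl2* ran from -0.06 to 0.02.

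The Y complex, the outer scaffold that also loads pores onto chromatin, was split. Of its 9 members 5 were higher and 4 lower by the fitted value, and 0 passed the test. *Ahctf1*, the chromatin-binding ELYS that starts pore assembly after mitosis, had 17.7 and 17.3 FPKM in control and 20.4 and 19.6 in Foxa1/2cKO. *Nup160* had 16.7 and 16.6 in control and 19.2 and 17.4 in Foxa1/2cKO, and *Nup107* had 33.3 and 34.8 in control and 38.3 and 33.7 in Foxa1/2cKO. The groups of *Ahctf1* and *Nup160* did not overlap and those of *Nup107* did, with log2 fold changes of 0.19 (SE 0.09), 0.13 (SE 0.10) and 0.08 (SE 0.10). *Nup85* lay the other way, at 34.7 and 37.1 FPKM in control and 34.2 and 26.6 in Foxa1/2cKO. This difference, -0.24 on the log2 scale (SE 0.14, unadjusted p = 0.154 from limma), came mostly from Foxa1/2cKO 2, at -0.42 in that sample and -0.07 in Foxa1/2cKO 1. *Nup37*, also of this complex, had the second widest gap of all members between the Foxa1/2cKO samples, at 14.7 and 7.31 FPKM, on 217 and 111 reads.

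In the inner ring, which links scaffold to channel, Foxa1/2cKO 1 was the highest and Foxa1/2cKO 2 the lowest of the 4 samples for all 5 members. Over all tested genes these shares were 23.4% and 33.3%. *Nup205* had 25.3 and 23.5 FPKM in control and 29.2 and 16.9 in Foxa1/2cKO. *Nup93*, the ring's organising subunit, had 22.6 and 23.2 in control and 23.5 and 17.9 in Foxa1/2cKO, and *Nup155*, next to the membrane, had 13.6 and 14.0 in control and 15.5 and 12.6 in Foxa1/2cKO. The controls therefore lay between the Foxa1/2cKO samples for each, and the median log2 fold change of the 5 was -0.00.

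Of the channel nucleoporins, *Nup62* is the subunit most studied as the FG barrier. It had 48.7 and 47.9 FPKM in control and 46.7 and 44.0 in Foxa1/2cKO. Its partners *Nupl1* (Nup58) and *Nup54* lay on the other side of control: *Nupl1* had 25.1 and 26.6 in control and 30.9 and 28.9 in Foxa1/2cKO, and *Nup54* had 19.2 and 17.3 in control and 20.1 and 21.1 in Foxa1/2cKO. Control and Foxa1/2cKO were apart for each of the 3, and the log2 fold changes were -0.09 (SE 0.08), 0.20 (SE 0.09, unadjusted p = 0.0802 from limma) and 0.17 (SE 0.10). Part of the reads of *Nupl1* may be uncertain, since 53.7% of the 50-base stretches of its longest transcript are also held by another annotated gene, and 20.3% of those of *Nup54* are. The share was 59.6% for *Ipo4* and 44.9% for *Nup35*, whose values carry the same doubt.

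For the 3 members of the nuclear basket both Foxa1/2cKO samples were above both controls (18.9% of all tested genes), and 1 of the 3 had an unadjusted p under 0.05. *Tpr*, which forms the basket's filaments, had 62.0 and 60.3 FPKM in control and 69.3 and 67.5 in Foxa1/2cKO. *Nup153*, which tethers the basket and binds importins, had 42.7 and 39.3 in control and 49.5 and 47.7 in Foxa1/2cKO. *Nup50*, a mobile cofactor of import, had 28.4 and 29.7 in control and 30.4 and 30.1 in Foxa1/2cKO, so that its groups were only just apart. The log2 fold changes were 0.16 (SE 0.08, unadjusted p = 0.109), 0.24 (SE 0.09, unadjusted p = 0.0458) and 0.06 (SE 0.08, unadjusted p = 0.525), each with a limma adjusted p of at least 0.863. Foxa1/2cKO 2 was the lowest sample for none of the 3.

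The transmembrane nucleoporins, which anchor the pore in the envelope, had Foxa1/2cKO 2 as the lowest sample for all 3 tested (33.3% of all genes). *Nup210* (gp210), known for changing with cell differentiation, had 80.7 and 73.0 FPKM in control and 88.7 and 70.4 in Foxa1/2cKO. *Ndc1* had 10.3 and 11.9 in control and 11.3 and 7.84 in Foxa1/2cKO, and *Pom121* had 31.4 and 29.5 in control and 29.8 and 24.7 in Foxa1/2cKO. The groups overlapped for each, and the log2 fold changes were 0.04 (SE 0.14), -0.21 (SE 0.19) and -0.16 (SE 0.12).

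**Figure D2:**
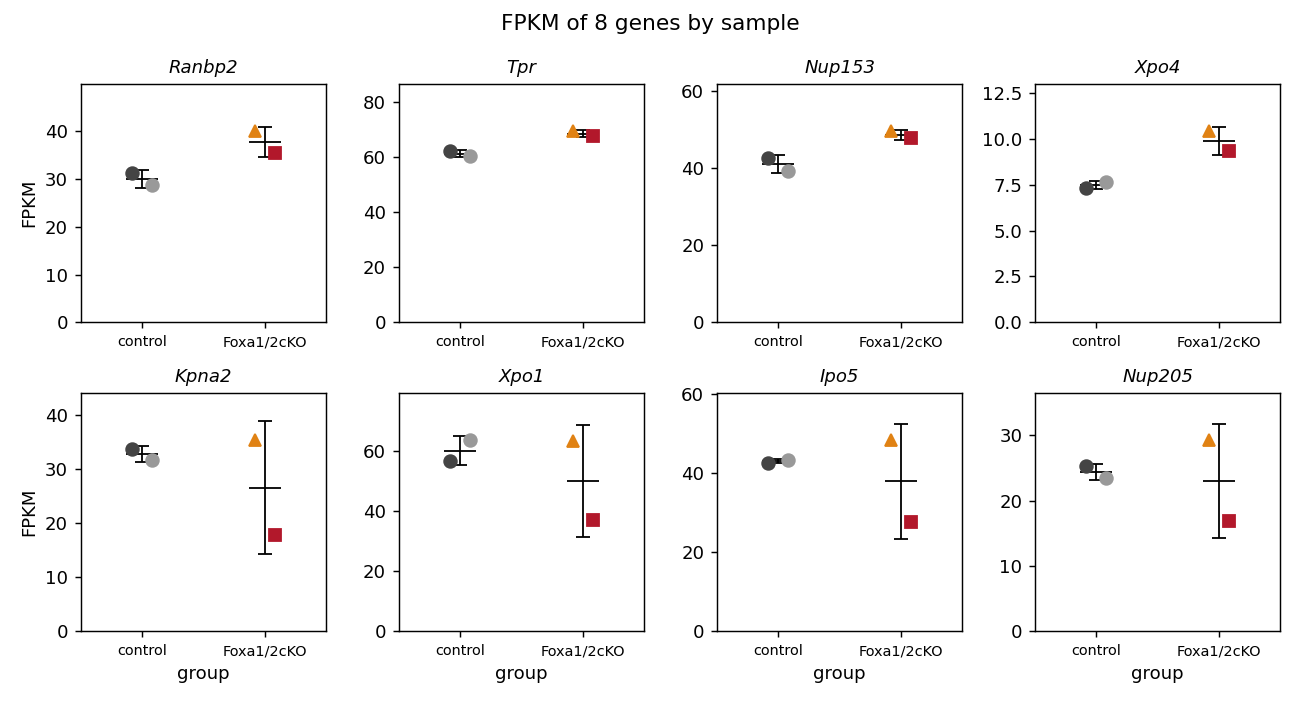
FPKM (vertical axes, from 0) of 8 members in control and Foxa1/2cKO samples; each point is a sample, circles for control, the triangle for Foxa1/2cKO 1 and the square for Foxa1/2cKO 2, and bars give the mean and SD of the 2 samples. In the upper row both Foxa1/2cKO samples are above both controls (*Ranbp2* at 39.9 and 35.5 against 31.2 and 28.7). In the lower row Foxa1/2cKO 2 is the lowest sample (*Kpna2* at 17.9 against 31.8 to 35.4). There Foxa1/2cKO 1 is above both controls for *Kpna2*, *Ipo5* (48.2 against 42.6 and 43.3) and *Nup205* (29.2 against 25.3 and 23.5), but not for *Xpo1*.

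Importins alpha, the adaptors that read classical nuclear localisation signals, showed both patterns. *Kpna1* had 16.7 and 17.4 FPKM in control and 20.3 and 18.4 in Foxa1/2cKO, which gave a log2 fold change of 0.18 (SE 0.10). *Kpna2*, an adaptor often high in cycling cells, had 33.8 and 31.8 in control, 35.4 in the first Foxa1/2cKO sample and 17.9 in the second. The latter alone was low, by 45.4% of the control mean, and the fitted log2 fold change was -0.37 with a standard error of 0.32. *Kpna2* is also the least certain member, because 92.4% of the 50-base stretches of its longest transcript are shared with *Gm10184* or *Gm10259*. *Kpna4* was highest in Foxa1/2cKO 2, at 53.4 FPKM against 43.9 to 45.1 in the other samples, the opposite of *Kpna2*. *Kpna3* and *Kpna6* had log2 fold changes of 0.02 and 0.11.

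Importins of the beta family carry cargo themselves or with an adaptor. Of these 8, 6 were lower by the fitted value, as were 5253 of the 10776 tested genes. Their median log2 fold change was -0.14. *Kpnb1* had 81.6 and 86.3 FPKM in control and 84.3 and 76.0 in Foxa1/2cKO. *Ipo5* had 42.6 and 43.3 in control and 48.2 and 27.7 in Foxa1/2cKO, and *Ipo7* had 30.5 and 31.5 in control and 31.1 and 23.2 in Foxa1/2cKO. In all 3 genes only Foxa1/2cKO 2 was below the controls, and it was the lowest sample for 7 of the 8 importins beta (33.3% of all genes). *Ipo9*, a carrier of histones and actin, was the member with the smallest p of those lower in both Foxa1/2cKO samples: 25.4 and 27.7 FPKM in control and 23.6 and 22.0 in Foxa1/2cKO, which gave a log2 fold change of -0.21 (SE 0.10, unadjusted p = 0.0825, adjusted p = 0.863 from limma). *Ipo8* was also below both controls, at 14.6 and 14.0 in control and 13.98 and 12.8 in Foxa1/2cKO, which gave a log2 fold change of -0.09 (SE 0.10). *Ipo13*, which works in both directions, was the 1 member with Foxa1/2cKO 1 as its lowest sample, at 16.8 FPKM against 17.7 to 19.9.

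Of the exportins, *Xpo4* had the smallest p of all members. It had 7.31 and 7.65 FPKM in control and 10.4 and 9.34 in Foxa1/2cKO, a mean 31.9% above control, on 358 to 388 reads. The groups were apart, and the log2 fold change was 0.36 (SE 0.11, unadjusted p = 0.0230, adjusted p = 0.863 from limma). *Xpo1* (CRM1), which exports proteins with a leucine-rich signal, stood at 56.8 and 63.5 FPKM in control, at 63.4 in the first and 37.0 in the second Foxa1/2cKO sample, so that 1 sample carried its log2 fold change of -0.30 (SE 0.27). *Xpo5*, which exports pre-miRNA hairpins, had 24.5 and 24.2 in control and 24.7 and 26.4 in Foxa1/2cKO. *Xpo6* and *Xpo7* had log2 fold changes of -0.06 and 0.02.

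The members most like *Ranbp2* over the 4 samples were *Nup153*, *Xpo4*, *Ahctf1*, *Nupl1* and *Kpna1*. Likeness was the root mean square distance of log2(FPKM + 1) after each gene was centred on its own mean, and it was 0.0566, 0.0656, 0.0845, 0.0960 and 0.0961 for the 5. They share the libraries, and 4 points per gene allow no more than this description.

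The 2 Foxa1/2cKO samples differed more from each other than the controls did. Across members the SD of the log2 difference between samples of a group was 0.281 in Foxa1/2cKO and 0.0948 in control, against 0.405 and 0.198 across all tested genes. Foxa1/2cKO 2 was the lowest sample for 26 members (54.2%; 33.3% of all genes) and Foxa1/2cKO 1 the highest for 24 of 48 (23.4% of all genes). The reverse was rarer, with Foxa1/2cKO 2 the highest sample for 9 members (40.5% of all genes) and Foxa1/2cKO 1 the lowest for 1 (29.1%). Foxa1/2cKO 2 was below Foxa1/2cKO 1 for 39 of 48 members and for 4977 of the 10776 tested genes. It was lower by at least 0.5 on the log2 scale for 6 of 48, a share near the 10.3% of all genes. The 6 were *Kpna2*, *Nup37*, *Ipo5*, *Xpo1*, *Nup205* and *Ipo4*. The median difference from control was 0.08 in Foxa1/2cKO 1 and -0.09 in Foxa1/2cKO 2.

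**Figure D3:**
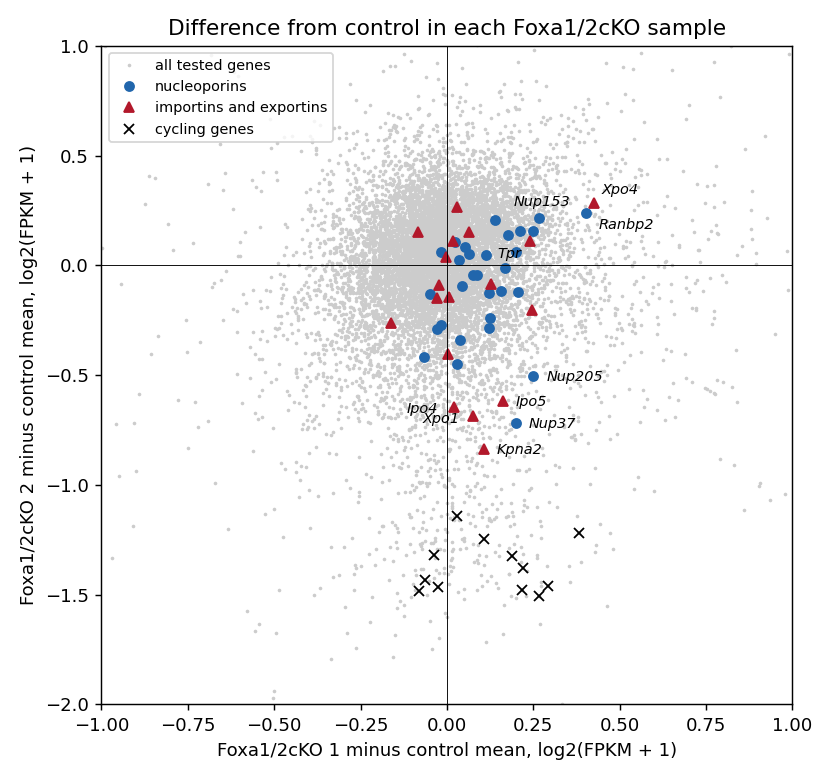
Difference from the control mean on log2(FPKM + 1) in Foxa1/2cKO 1 (horizontal axis) and in Foxa1/2cKO 2 (vertical axis) for all tested genes (grey points), nucleoporins (circles), importins and exportins (triangles) and 12 cycling genes (crosses); 89 of the 10776 tested genes lie outside the axes. *Ranbp2* and *Xpo4* are above 0 on both axes, while *Kpna2*, *Nup37*, *Xpo1*, *Ipo4*, *Ipo5* and *Nup205* are above 0 in Foxa1/2cKO 1 and at -0.50 or below in Foxa1/2cKO 2.

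The counts were also taken without each Foxa1/2cKO sample, with limma and the lone sample assumed to vary like the controls. Without Foxa1/2cKO 2, 13 members were higher at an unadjusted p under 0.05 (7.61% of all genes) and 0 lower (9.88%), and 0 had an adjusted p under 0.05 (0.0464% of all genes higher and 0.13% lower). The 13 were *Ranbp2*, *Tpr*, *Nup153*, *Nup107*, *Nup160*, *Ahctf1*, *Nupl1*, *Nup205*, *Nup210*, *Kpna1*, *Kpna3*, *Ipo5* and *Xpo4*. Without Foxa1/2cKO 1, 4 members were higher and 15 lower at an unadjusted p under 0.05 (21.5% and 17.7% of all genes). In that fit 11 were lower and 1, *Kpna4*, higher at an adjusted p under 0.05 (11.3% and 12.4% of all genes), but it sets 1 sample against 2 controls. The 11 were *Xpo1*, *Kpna2*, *Ipo4*, *Ipo5*, *Ipo7*, *Nup37*, *Nup85*, *Nup93*, *Nup205*, *Ndc1* and *Pom121*, and of these *Ipo5* and *Nup205* were among the 13 higher ones without Foxa1/2cKO 2. The fits share both controls.

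Transcript length and fold change were weakly correlated. Across the 48 members, log length and log2 fold change had a Pearson's r of 0.25 and a Spearman's rho of 0.20, and across all tested genes both were 0.14. The points share the same 4 libraries. Members higher by the fitted value were 4 of 14 below 3000 bases, 11 of 15 from 3000 to 5000 and 12 of 19 from 5000 up. For members the share did not rise steadily. Over all tested genes it was 46.5%, 53.5% and 63.4%. Members had a median length of 4144 bases, against 2750 over all tested genes. After a correction for length the log2 fold change was 0.24 for *Ranbp2* (unadjusted p = 0.0653 from limma), 0.20 for *Nup153* (unadjusted p = 0.0730 from limma) and 0.35 for *Xpo4* (unadjusted p = 0.0282 from limma). Of the 3, *Xpo4* alone remained under 0.05.

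Around the pore, the Ran cycle, which gives transport its direction, was lower by the fitted value in 7 of 7 genes. Over all tested genes 5253 of 10776 were lower. The median log2 fold change of the 7 was -0.27, and 0 had an unadjusted p under 0.05. The median difference from control was -0.03 in Foxa1/2cKO 1 and -0.54 in Foxa1/2cKO 2. *Ran* itself had 99.4 and 101.7 FPKM in control and 101.0 and 68.9 in Foxa1/2cKO. *Rcc1*, the nuclear exchange factor that loads Ran with GTP, had 29.8 and 31.1 in control and 26.0 and 15.1 in Foxa1/2cKO, below both controls in both samples, with a log2 fold change of -0.59 (SE 0.26, unadjusted p = 0.0729, adjusted p = 0.863 from limma). *Ranbp1*, a partner of Ran in the cytoplasm, had 134.2 and 145.6 in control and 129.0 and 88.9 in Foxa1/2cKO. *Rangap1*, which makes Ran hydrolyse its GTP, had 54.1 and 52.7 in control and 52.5 and 48.2 in Foxa1/2cKO. Foxa1/2cKO 2 was the lowest sample for these 4 and for 6 of the 7 (33.3% of all genes). *Ranbp3*, a cofactor of export by CRM1, was the exception, named after its values were seen, and was highest there, at 62.8 FPKM against 52.9 to 59.6 in the other samples.

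The list of other receptors of the importin beta family, which also held the adaptor *Snupn*, showed no such difference, with 4 of 7 higher and 3 lower. Its median log2 fold change of 0.02 was the value of *Snupn*. *Cse1l*, which returns importin alpha to the cytoplasm, had 32.6 and 33.2 FPKM in control and 40.1 and 28.8 in Foxa1/2cKO. *Tnpo1*, the transportin of hnRNP proteins, had 20.9 and 21.1 in control and 25.3 and 21.2 in Foxa1/2cKO, and *Tnpo3*, which imports SR splicing factors, had 39.2 and 39.8 in control and 38.7 and 37.7 in Foxa1/2cKO. For the first the groups overlapped, and for *Tnpo1* and *Tnpo3* they did not, by small margins. The smallest p in each direction were those of *Ranbp6*, at 11.7 and 11.6 FPKM in control and 12.1 and 13.7 in Foxa1/2cKO, and *Tnpo2*, at 45.5 and 46.2 in control and 41.7 and 44.8 in Foxa1/2cKO. Their log2 fold changes were 0.14 (SE 0.10) and -0.08 (SE 0.09). *Ranbp17*, at 0.018 to 0.199 FPKM, was not tested.

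Of 24 mRNA export genes, 13 were higher and 11 lower, with a median log2 fold change of 0.01 and 1 unadjusted p under 0.05, a share near the 4.55% of all tested genes. That gene was *Thoc2*, the large subunit of THO, at 28.5 and 28.9 FPKM in control and 35.0 and 33.1 in Foxa1/2cKO (log2 fold change 0.24, SE 0.08, unadjusted p = 0.0404, adjusted p = 0.863 from limma). *Ddx39b*, the helicase that loads export factors, had 316.2 and 327.8 in control and 261.2 and 284.0 in Foxa1/2cKO (log2 fold change -0.24, SE 0.09, unadjusted p = 0.0509 from limma). *Nxf1*, the export receptor of most mRNA, had 120.9 and 120.4 in control and 123.8 and 144.1 in Foxa1/2cKO. All 3 had groups that did not overlap, as had 29.2% of the whole list and 36.7% of all tested genes.

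The nuclear lamina and envelope list had 10 of 17 genes higher and 7 lower, and its 2 unadjusted p under 0.05 were both lower, *Banf1* and *Lmna* (2.15% of all tested genes were lower at this p). *Banf1*, which tethers chromatin to the envelope, had 107.9 and 99.4 FPKM in control and 89.9 and 78.7 in Foxa1/2cKO (log2 fold change -0.30, SE 0.11, unadjusted p = 0.0416, adjusted p = 0.863 from limma). *Syne1*, a giant linker to the cytoskeleton, had the smallest p of those higher, at 12.4 and 10.8 in control and 12.9 and 17.6 in Foxa1/2cKO. *Lmnb1*, the main B-type lamin, had 115.4 and 127.3 in control and 117.2 and 90.9 in Foxa1/2cKO, low in Foxa1/2cKO 2 alone. Of 8 SUMO enzymes, which act at the pore with RanBP2, 4 were higher and 4 lower, and *Sae1*, of the SUMO-activating enzyme, had the smallest p of those lower, at 49.6 and 53.0 FPKM in control and 46.2 and 43.3 in Foxa1/2cKO (log2 fold change -0.19, SE 0.09).

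**Figure D4:**
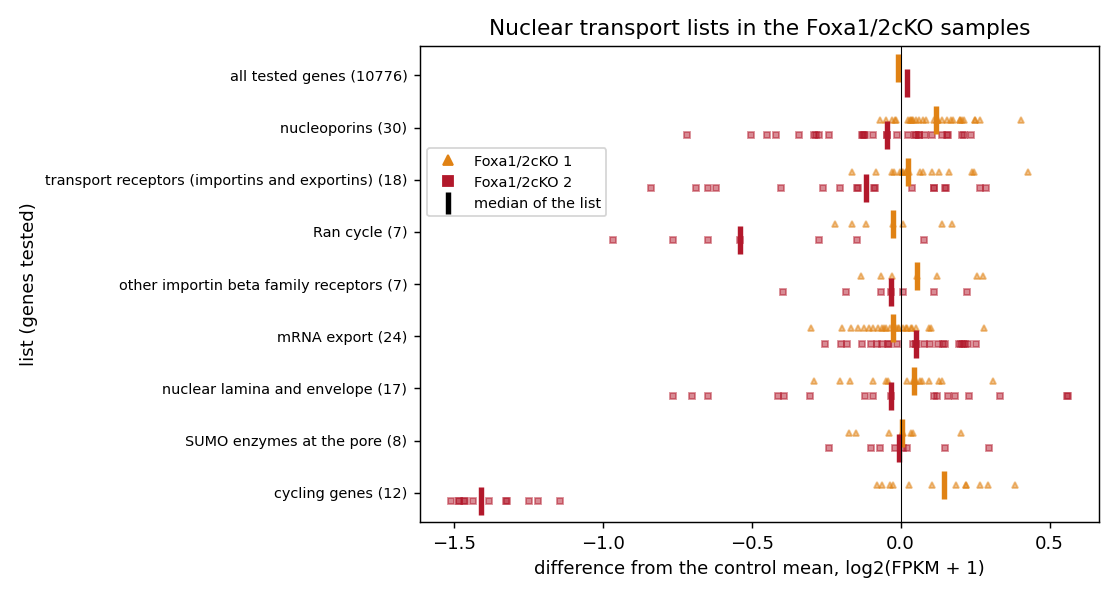
Difference from the control mean on log2(FPKM + 1) (horizontal axis) for the genes of each list (vertical axis, genes tested in brackets), with triangles for Foxa1/2cKO 1, squares for Foxa1/2cKO 2 and bars for the median of each sample; for all tested genes the medians alone are drawn. The Ran cycle has a median of -0.54 and the cycling genes of -1.41 in Foxa1/2cKO 2, against -0.03 and 0.15 in Foxa1/2cKO 1.

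The cycling genes, used as a check, were lower by the fitted value in 12 of 12, against 5253 of the 10776 tested genes. Their median difference from control was 0.15 in the first Foxa1/2cKO sample and -1.41 in the second. None had an unadjusted p under 0.05. *Ccna2*, the cyclin of S phase and G2, had the smallest p, at 56.0 and 60.0 FPKM in control and 54.8 and 20.1 in Foxa1/2cKO. The sample low in cycling genes was also the lowest for *Kpna2*, *Xpo1*, *Ipo5*, *Nup205*, *Nup37*, *Ipo4* and 6 of the 7 Ran cycle genes. It was the highest sample for 9 members, *Kpna4* among them. The 6 members named were picked because they lay at least 0.5 lower there than in Foxa1/2cKO 1 on the log2 scale. Their low values in that sample are therefore no separate result. Over all tested genes that share was 10.3%, near the share of the members. The part of cycling cells in these values was not tested.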

How the data were processed

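RNA from FACS-sorted CD69+DP thymocytes was measured by RNA-seq in 2 control and 2 Foxa1/2cKO samples. The authors aligned reads to mm10; TopHat, Picard and DESeq2 are named in the submitters' processing notes. The deposited unit is FPKM, computed by the authors for each gene, and the tool that made them is not given in the sources used here. Whole reads and gene lengths were recovered from the steps between FPKM values for 100% of the 16069 genes above 0, up to a common divisor (95.3% of 1000 genes checked had a whole length, within 0.02 base). They gave 10382399 to 14462250 reads per sample and cover counting error only. The scale value that divides the FPKM of Foxa1/2cKO 2 was 11093927, below its 11246945 recovered reads. In the other samples it was above the recovered reads. The values are therefore not a plain division by the reads of each library, and how the scale was set is not given.

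The 10776 genes that reached an FPKM of 1 in 2 samples were fitted with limma 3.58.1 (R 4.3.3) on log2(FPKM + 1) with a variance trend, genotype as the only term, two-sided, with Benjamini-Hochberg adjustment over all of them and a threshold of 0.05. The pseudocount of 1 understates the change of low genes. Across all tested genes, the difference between the 2 controls and that between the 2 Foxa1/2cKO samples had a correlation of -0.06. A single correlation cannot show whether replicate numbers pair the samples, for example by sort.

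The members, the related lists and the markers were chosen with earlier results of these data known. Given sample by sample were *Ranbp2*, 20 members fixed by role, up to 4 non-overlapping members in either direction by limma p, 9 related genes and 1 gene per direction and list with the smallest p; the 5 members nearest to *Ranbp2* were also named, and *Rae1*, *Ahctf1*, *Nup54*, *Nup50* and others were added as examples after their values were seen. For 1 list, a gene that this rule names is not reported here. Positions are from GENCODE M21 and promoters from RefSeq GRCm38.p6, matched by symbol for 41 of 52 members. Figures and tables used Python 3.11.15, numpy 2.4.6, pandas 2.3.3 and matplotlib 3.10.9. Alternatives were a pseudocount of 0.1, no filter or a filter of 5 FPKM, upper-quartile scaling, a replicate block, a length correction with and without it, and leaving out each sample. Limma-voom on recovered reads and scaling to all recovered reads were added after seeing the data.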

Additional observations from a re-analysis of the deposited data

How the results depend on the processing

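The comparison was limited by 2 samples per group, by Foxa1/2cKO 2 standing apart, and by a depth of 96 reads for the lowest member value. With each sample left out in turn, all genes with an adjusted p under 0.05 ranged from 0 to 1339 higher and from 0 to 1220 lower, and those with an unadjusted p under 0.05 from 32 to 2314 higher and from 41 to 1909 lower. Members ranged from 0 to 1 higher and from 0 to 11 lower at an adjusted p under 0.05, from 0 to 13 higher and from 0 to 15 lower at an unadjusted p under 0.05, and their median log2 fold change from -0.088 to 0.075. Leaving out either control left 0 members with an unadjusted p under 0.05. The 1 gene of all with an adjusted p under 0.05 became 0 with a pseudocount of 0.1, no filter, a filter of 5 FPKM, upper-quartile scaling, limma-voom or scaling to all recovered reads, and 2 with the replicate block and length correction together. With no filter, 439 of all genes were lower at an unadjusted p under 0.05. With the replicate block 165 of all genes were higher and 213 lower, and members higher at an unadjusted p under 0.05 fell from 3 to 1; they were 1 with the length correction, 0 with block and length correction together, and 1 with scaling to all recovered reads. Whether the numbers of replicates pair the samples was not settled by the correlation of -0.06. Members higher at an unadjusted p under 0.05 were 2 with upper-quartile scaling and 3 with a pseudocount of 0.1, no filter, a filter of 5 FPKM or limma-voom. The median log2 fold change of the members was 0.0195 in the main fit and -0.0134 with scaling to all recovered reads.

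Of the 48 members, 22 kept the sign of their fold change in all 13 alternatives, 15 higher (*Ranbp2*, *Nup153*, *Tpr* and *Xpo4* among them) and 7 lower. With upper-quartile scaling the log2 fold changes were *Nup155* -0.00056, *Nup214* -0.0049, *Xpo7* -0.0010. With the length correction, with or without the block, they were *Nup155* -0.029, *Nup188* -0.018, *Nup210* -0.013, *Nup214* -0.055, *Nup98* -0.038, *Xpo7* -0.10. With scaling to all recovered reads they were *Ipo11* -0.010, *Kpna3* -0.011, *Nup155* -0.014, *Nup188* -0.013, *Nup214* -0.019, *Nup88* -0.011, *Nup98* -0.0019, *Xpo7* -0.014. The members whose sign turned when a sample was left out ranged as follows over the 4 such fits: *Aaas* -0.092 to 0.043, *Ipo11* -0.085 to 0.13, *Ipo13* -0.083 to 0.15, *Ipo4* -0.65 to 0.020, *Ipo5* -0.62 to 0.16, *Ipo7* -0.40 to 0.0033, *Kpna2* -0.84 to 0.11, *Kpna3* -0.20 to 0.25, *Kpnb1* -0.14 to 0.0074, *Ndc1* -0.45 to 0.030, *Nup107* -0.012 to 0.17, *Nup155* -0.12 to 0.16, *Nup188* -0.044 to 0.086, *Nup205* -0.50 to 0.25, *Nup210* -0.12 to 0.21, *Nup214* -0.072 to 0.10, *Nup35* -0.13 to 0.12, *Nup37* -0.72 to 0.20, *Nup43* -0.28 to 0.12, *Nup88* -0.032 to 0.079, *Nup93* -0.34 to 0.039, *Nup98* -0.016 to 0.078, *Nupl2* -0.24 to 0.13, *Sec13* -0.00091 to 0.13, *Xpo1* -0.69 to 0.075, *Xpo7* -0.0023 to 0.037. The cause of these turns was not tested.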
